A study of Mus musculus with 2 samples.

Results

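The open chromatin around 8 genes named in studies of cleft lip and palate was described in the facial prominences of the mouse embryo: Vax1, Foxe1, Ntn1, Crispld2, Nectin1, Ctnnd1, Arhgap29 and Myh9. They are 8 of 21644 protein-coding genes, chosen by name and not by a rule on measured values, though earlier results of these data were known. An accessible site was given to one of them when its midpoint lay nearer to a protein-coding transcription start site (TSS) of that gene than to that of any other gene. By this rule 225 of 209237 peaks of replicate 1 and 244 of 219038 peaks of replicate 2 belonged to the 8 genes. A peak within 1 kb of the TSS is called a promoter peak and one farther away a distal peak. Peaks of 150 bp that overlapped between the libraries by at least 75 bp are called shared. The nearest gene need not be the gene that a site controls.

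The assay was DNase-seq, in which the nuclease DNase I cuts DNA that is not wrapped up in nucleosomes, so that promoters, enhancers and insulators give clusters of cuts. The tissue was the facial prominence, the outgrowths from which the face and palate form, dissected at embryonic day 11.5 from healthy B6NCrl mice, an inbred strain. There was 1 group of 2 libraries, labelled biological replicates 1 and 2. Each was made from its own biosample of pooled male and female embryos, and both carry the same donor identifier. Replicate 2 was run on 1 sequencer model more than replicate 1. No allele, agent or second stage was studied, so there was no comparison between conditions and no test was made. What can be asked is where these genes had open sites, and which of those sites both libraries held. Whole prominences hold several cell types. A weaker site can therefore reflect fewer cells with the site open or less opening per cell, which cannot be told apart in bulk tissue.

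The lip and palate form when prominences of neural crest mesenchyme, covered by ectoderm, grow towards each other, adhere and fuse. That process needs transcription factors that pattern the tissue, secreted signals, adhesion molecules that hold the epithelia together and the contractile cytoskeleton behind them, and the 8 genes span these roles. Vax1 (homeobox) and Foxe1 (forkhead) encode transcription factors. Ntn1 encodes a secreted guidance cue related to laminin, and Crispld2 a secreted protein with an LCCL domain. Nectin1 encodes an immunoglobulin-like adhesion molecule, and Ctnnd1 the catenin that binds the membrane-proximal part of cadherins and keeps them at the surface. Arhgap29 encodes a GTPase-activating protein, and Myh9 a heavy chain of non-muscle myosin.

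Some sequences behind the results are given first. Here and below, the peaks of a gene are ordered by strength through the mean of their percentile ranks of strength in the 2 libraries, and the order in a single library can differ. Each is the part of a shared peak of replicate 1 that lies outside annotated untranslated regions (UTRs), read 5′ to 3′ on the gene's strand from GRCm38.p6, the build of the peaks. Capitals mark matches, on either strand, to any of 18 short motifs whose letters are given further on. The first set holds the strongest promoter peak of 5 genes and the strongest distal peak of Arhgap29, which is set beside that gene's promoter. That distal peak lies 39 bp from another annotated TSS of Arhgap29, as described further on. The strongest promoter peaks of Ntn1 and Ctnnd1 lay mostly in UTRs and are described without letters, and that of Vax1 held none of the motifs.
Arhgap29 promoter, chr3:121953136-121953228, plus strand: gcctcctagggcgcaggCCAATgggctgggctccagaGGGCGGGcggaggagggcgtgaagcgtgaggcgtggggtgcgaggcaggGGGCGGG
Arhgap29 distal, chr3:121967716-121967828, plus strand: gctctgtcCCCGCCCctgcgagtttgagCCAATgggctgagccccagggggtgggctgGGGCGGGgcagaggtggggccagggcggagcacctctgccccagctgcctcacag
Myh9 promoter, chr15:77842316-77842465, minus strand: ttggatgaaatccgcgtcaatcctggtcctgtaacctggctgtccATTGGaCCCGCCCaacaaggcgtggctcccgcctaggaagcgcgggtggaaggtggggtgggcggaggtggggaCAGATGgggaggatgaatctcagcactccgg
Crispld2 promoter, chr8:119992356-119992437, plus strand: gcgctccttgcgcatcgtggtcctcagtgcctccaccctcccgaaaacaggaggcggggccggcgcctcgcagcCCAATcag
Nectin1 promoter, chr9:43743676-43743825, plus strand: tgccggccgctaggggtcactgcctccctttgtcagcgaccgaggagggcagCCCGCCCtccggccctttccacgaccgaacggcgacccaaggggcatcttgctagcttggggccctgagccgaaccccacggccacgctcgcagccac
Foxe1 promoter, chr4:46343196-46343345, plus strand: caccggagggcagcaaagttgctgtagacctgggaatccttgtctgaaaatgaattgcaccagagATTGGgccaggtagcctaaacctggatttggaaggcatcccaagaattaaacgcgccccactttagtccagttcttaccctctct

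Both Arhgap29 stretches held the run gCCAATgggctg of 12 bases, at chr3:121953152-121953163 and chr3:121967743-121967754, with a SP/KLF motif (GGGCGGG) downstream of it in each. The Myh9 promoter had an inverted NF-Y motif (ATTGG) 1 base from an inverted SP/KLF motif. The Foxe1 promoter had an inverted NF-Y motif and no SP/KLF motif.

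The second set holds the strongest distal peak, by mean percentile rank, of each of the other 7 genes. At Vax1 another shared distal peak was stronger in replicate 1, and at Ctnnd1 another was stronger in replicate 2.
Vax1 distal, chr19:59171276-59171425, minus strand: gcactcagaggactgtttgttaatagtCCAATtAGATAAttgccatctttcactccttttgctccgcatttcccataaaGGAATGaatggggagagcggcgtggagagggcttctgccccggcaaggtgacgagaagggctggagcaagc
Foxe1 distal, chr4:46304856-46305005, plus strand: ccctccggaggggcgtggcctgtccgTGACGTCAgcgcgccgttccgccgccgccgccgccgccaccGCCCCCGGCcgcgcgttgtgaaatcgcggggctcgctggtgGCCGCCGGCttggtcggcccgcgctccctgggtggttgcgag
Ntn1 distal, chr11:68408296-68408445, minus strand: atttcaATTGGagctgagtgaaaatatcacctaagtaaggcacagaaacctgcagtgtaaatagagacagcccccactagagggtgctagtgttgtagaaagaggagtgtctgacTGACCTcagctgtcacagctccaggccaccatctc
Nectin1 distal, chr9:43698536-43698685, plus strand: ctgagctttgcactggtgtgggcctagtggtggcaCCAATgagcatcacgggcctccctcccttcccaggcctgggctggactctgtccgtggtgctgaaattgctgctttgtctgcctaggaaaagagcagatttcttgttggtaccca
Crispld2 distal, chr8:119994236-119994385, plus strand: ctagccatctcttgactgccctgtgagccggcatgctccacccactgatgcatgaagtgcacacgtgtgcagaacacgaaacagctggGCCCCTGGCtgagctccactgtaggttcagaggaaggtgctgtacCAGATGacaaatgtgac
Ctnnd1 distal, chr2:84617896-84618045, minus strand: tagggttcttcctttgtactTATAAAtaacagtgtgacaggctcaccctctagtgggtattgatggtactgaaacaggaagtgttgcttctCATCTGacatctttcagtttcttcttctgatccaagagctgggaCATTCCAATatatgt
Myh9 distal, chr15:77857776-77857925, minus strand: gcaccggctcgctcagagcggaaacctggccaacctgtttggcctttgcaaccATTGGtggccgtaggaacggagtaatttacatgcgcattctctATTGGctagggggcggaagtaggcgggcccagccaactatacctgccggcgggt

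The Foxe1 sequence was the most GC-rich of the 71 shared distal peaks of the 8 genes, at 79.3% G or C with 27 CpG dinucleotides, and contained a whole cyclic AMP response element (TGACGTCA) and 2 AP-2 motifs. The Myh9 distal sequence had 2 inverted NF-Y motifs. In the Ctnnd1 sequence an inverted TEAD motif and an NF-Y motif overlapped.

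Across the 8 genes, 90 of the 225 replicate 1 peaks were shared, which is 40.0% (95% Wilson interval 33.8 to 46.5%) against 41.1% of all replicate 1 peaks. From the side of replicate 2, 89 of 244 were shared, or 36.5% (interval 30.7 to 42.7%), against 38.5% of all. These shares were near those of all peaks, and the intervals cover counting error only and treat peaks as independent. Among all peaks of the same strengths, 52.7% were shared in replicate 1, above the interval of the 8 genes, and 41.1% in replicate 2, inside it. The strength of a peak is the signal value the authors deposited for it, and its scale is not given, so that it describes and ranks peaks within a library and its values are not compared as levels between libraries. Its median was 35 in replicate 1 for the shared peaks of the 8 genes and 17 for those that were not shared. In replicate 2 the medians were 66 and 39.

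The 90 shared peaks formed 88 distinct sites, 19 of the 90 being promoter peaks and 71 distal. Across these 90 peaks the strengths in the libraries correlated with a Pearson coefficient of 0.823 and a Spearman coefficient of 0.719, against 0.904 and 0.891 over all 85940 shared peaks. Both are descriptions across peaks that share 2 libraries. Of the unshared peaks of the chosen genes, 34.8% in replicate 1 and 25.8% in replicate 2 lay in a hotspot of the other library. A hotspot is a wider enriched region. Overlaps just inside the criterion were 90 bp and those just outside it 70 bp. Among the unshared peaks, 25 of replicate 1 and 20 of replicate 2 overlapped a peak of the other library by less than asked. The hotspot shares and these counts were not computed over all unshared peaks, so they describe the chosen genes only.

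**Figure D1:**
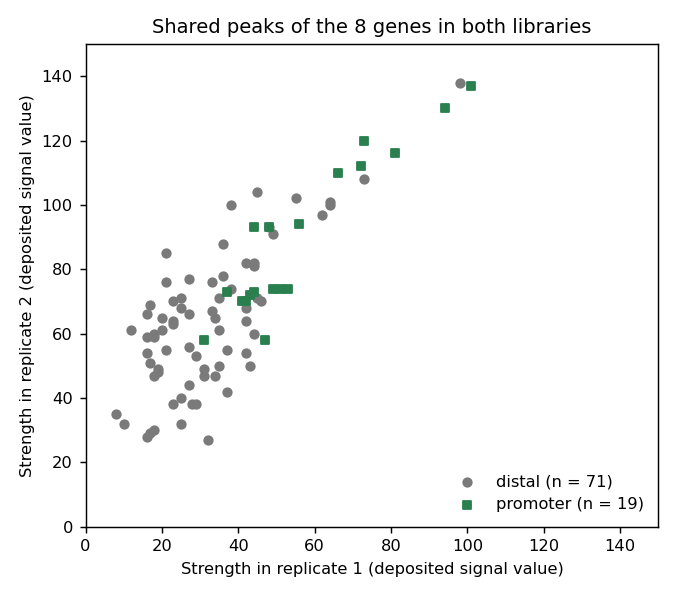
Strength of each of the 90 shared peaks in replicate 1 (x axis) and replicate 2 (y axis), both as the deposited signal value, with 19 promoter peaks as squares and 71 distal peaks as circles. Promoter peaks ran from 31 to 101 in replicate 1 and distal peaks from 8 to 98, so the classes overlapped.

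Every one of the 8 genes had a shared promoter peak, where 64.2% of all protein-coding genes had one. In single libraries 8 of 8 had a promoter peak in replicate 1 (67.3% of all genes) and 8 of 8 in replicate 2 (70.8% of all genes). The background share differed with CpG content. When genes were ordered by the CpG ratio of the promoter and split into 4 classes of equal size, 94.3% and 97.0% of the genes in the upper 2 classes had a shared promoter peak, and 7 of the 8 genes lay there. The other one, Ctnnd1, lay in the class below these, where the share was 55.9%. The median strength of the 19 promoter peaks was 49 in replicate 1 and 74 in replicate 2, against 61 and 102 over all 22993 shared promoter peaks. The strongest promoter peak of 6 genes lay above these medians in both libraries, and that of Vax1 and of Foxe1 below them.

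**Figure D2:**
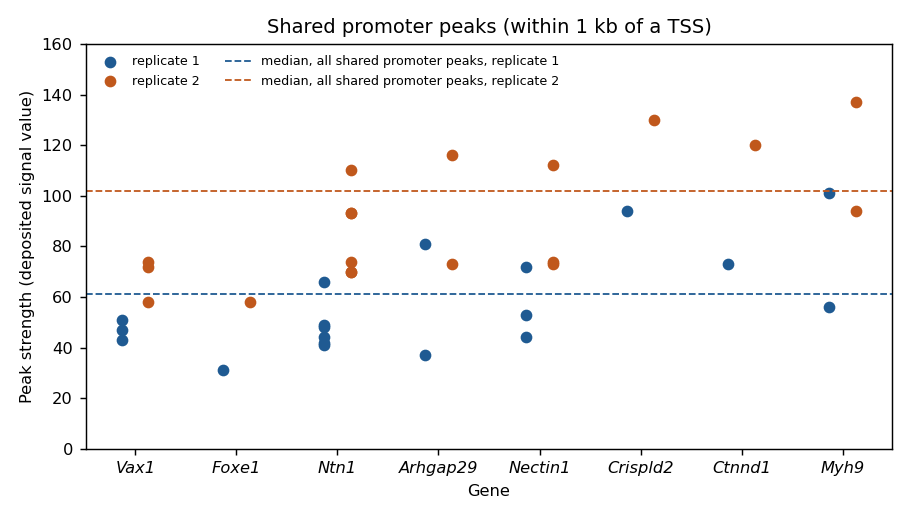
Strength (deposited signal value, y axis) of each shared promoter peak of the 8 genes (x axis) in replicate 1 and replicate 2, with dashed lines at the medians over all shared promoter peaks, 61 and 102. Each gene other than Vax1 and Foxe1 had a peak above the dashed line in both libraries, and all points of those genes lay below it.

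At least 1 shared distal peak was found at 8 of 8 genes, against 62.8% of all genes. A larger stretch of genome holds more peaks, so each gene was also given the number that its interval, the bases nearest to its TSSs, would hold if all 62947 shared distal peaks were spread evenly over intervals. The 8 genes had 71 where 28.0 were predicted. Of these 71, 11 lay within 1 kb of an annotated TSS that was not used to class peaks, of a noncoding gene or of another transcript of the gene. All 8 of 8 were above their own prediction, against 44.8% of all genes. Per gene the median was 8, against 1 over all genes. The order of the genes by this number ran from Nectin1 (18) and Ntn1 (15) through Vax1 (11), Foxe1 (10), Arhgap29 (6) and Myh9 (5) to Crispld2 and Ctnnd1 (3 each). Relative to prediction Vax1 stood highest at 6.48 times, with 3.88% of genes at this ratio or above, and Foxe1 followed at 4.34 times, with 8.74%. The lead of Vax1 depended on the setting. With an overlap of 90% of a peak, which kept only pairs at the same position, Vax1 had 1 shared distal peak (0.529 predicted). Foxe1 then had 3 (0.719 predicted). With the 50000 strongest peaks of each library these were 1 (0.565) and 3 (0.768), and as hotspots 8 (1.72) and 14 (2.34). In the main setting Ntn1 was at 2.61, Myh9 at 2.44, Arhgap29 at 2.185 and Nectin1 at 2.03 times. These ratios were reached by 19.4%, 21.1%, 24.1% and 26.2% of genes. Crispld2 was at 1.28 times and Ctnnd1 at 1.39 times, ratios reached by 39.2% and 37.1% of genes.

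**Figure D3:**
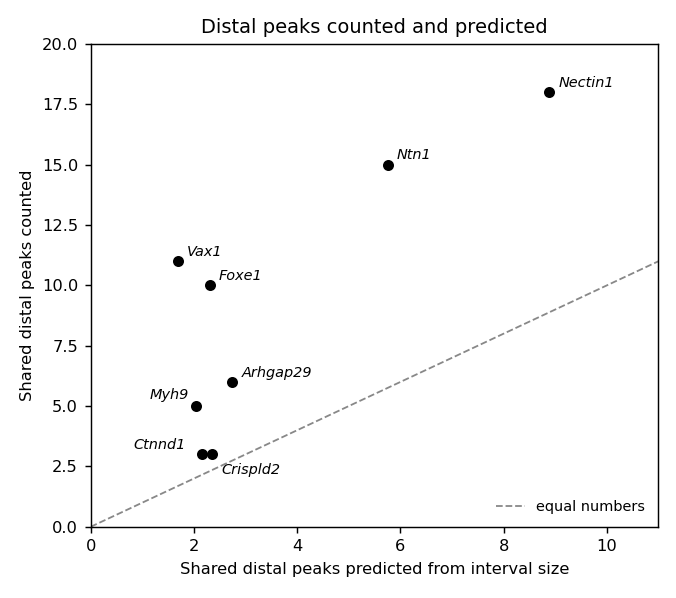
Shared distal peaks counted at each gene (y axis) against the number predicted from the size of its interval (x axis), with the dashed line where both are equal. All 8 genes lie above the line, Crispld2 and Ctnnd1 close to it with 3 counted and 2.35 and 2.16 predicted.

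The distal peaks lay mostly in introns and between genes. Of the 71, 29 were in an intron of a protein-coding gene, 27 of them in an intron of the gene itself, and 29 were intergenic. A further 6 were in introns of noncoding genes, 3 in noncoding exons, 2 in coding exons and 2 in UTR exons. The median distance to the TSS was 24.3 kb, against 30.7 kb over all shared distal peaks. Beyond 10 kb lay 69.0% of them (49 of 71), against 73.5% of all. Their median strengths, 29 in replicate 1 and 63 in replicate 2, were close to the 28 and 63 of all shared distal peaks. As hotspots, the 8 genes held 181 regions in replicate 1 and 207 in replicate 2, with median widths of 195 and 257 bp beside 201 and 240 bp over all hotspots. The highest significance the files record, a −log10 q of 100, was reached by 20.4% and 26.6% of them, against 29.4% and 35.2% of all. A TSS used to class peaks lay inside a hotspot in both libraries at 5 genes: Arhgap29, Nectin1, Crispld2, Ctnnd1 and Myh9.

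**Figure D4:**
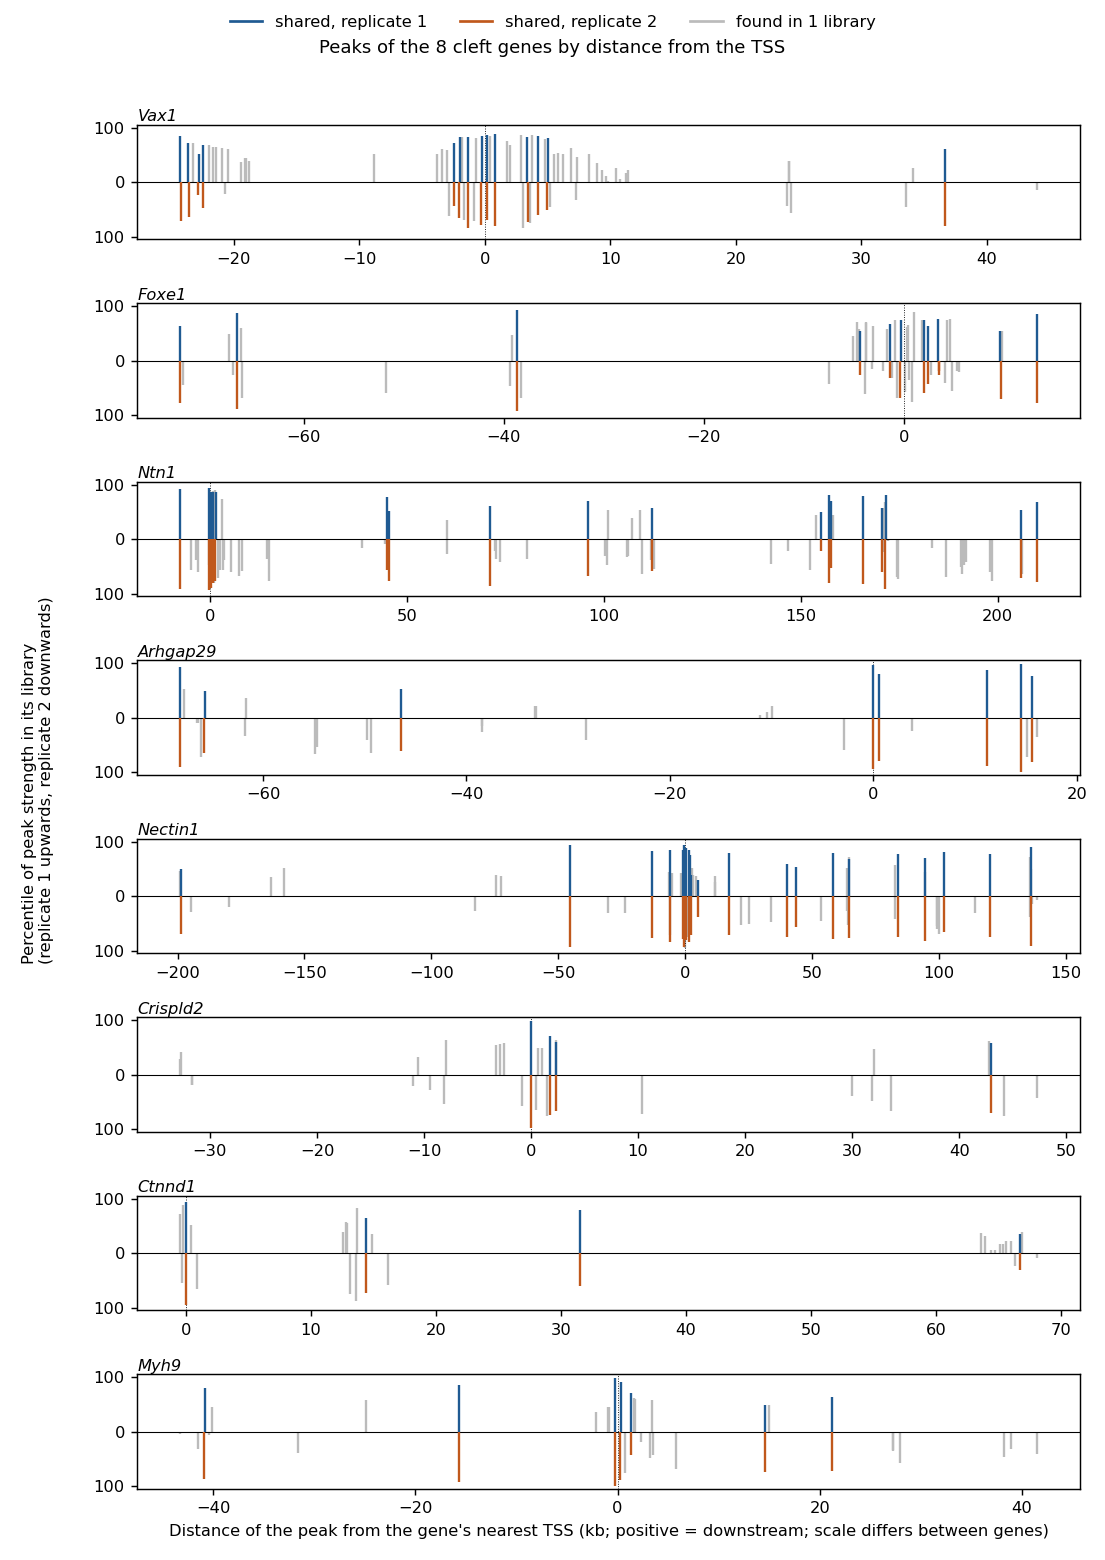
All peaks of the 8 genes by distance from the nearest TSS (x axis, kb, positive downstream, scaled per gene), with the percentile rank of strength in replicate 1 drawn upwards and in replicate 2 downwards (y axis); coloured lines are shared peaks and grey lines are peaks found in 1 library. Shared peaks crowd around the TSS at Vax1 and Foxe1 and reach 198.7 kb upstream at Nectin1 and 210 kb downstream at Ntn1.

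Vax1, the homeobox gene, had open chromatin over its whole short gene in replicate 1 and over less of it in replicate 2. The gene spans chr19:59166187-59170056 on the minus strand and had 53 peaks in replicate 1 and 26 in replicate 2, with 14 shared. Its shared promoter peaks lay at +785, +165 and -235 bp from the TSS, with strengths of 51, 47 and 43 in replicate 1 and 74, 58 and 72 in replicate 2. The first of them fell in an intron, the second in a coding exon and the third just outside the gene. None reached the median of all shared promoter peaks in either library.

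The highest shared distal peak of Vax1 by mean percentile rank was 1.29 kb upstream (42 and 82 in replicate 1 and replicate 2), although in replicate 1 peaks of 44 and 43 were stronger. The next lay in a coding exon 3.4 kb downstream of the TSS (42 and 64), and the third 24.3 kb upstream (44 and 60). The third belonged to a group of 4 shared peaks between 22.4 and 24.3 kb upstream. This group lay close to the midpoint between Vax1 and Kcnk18, whose TSSs were 49.2 kb apart, and counts towards the ratio of Vax1 to its prediction. A replicate 1 hotspot of 4013 bp over part of the group was not given to Vax1 by the nearest-TSS rule. Farthest was a peak 36.7 kb downstream, beyond the end of the gene, which was weaker in rank in replicate 1 (strength 21, percentile 60.5) than in replicate 2 (76, percentile 81.3).

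The hotspot over Vax1 differed in width between the libraries. In replicate 1 a single hotspot of 6957 bp, chr19:59164658-59171614, covered the whole gene, and only 26 hotspots of that library were wider. In replicate 2 the widest hotspot was 2048 bp, chr19:59170196-59172243, and began just upstream of the TSS. Within 5 kb of the TSS hotspots covered 8605 bp in replicate 1 and 4905 bp in replicate 2, where the medians over all genes were 1037.5 and 1203 bp. Of all genes, 99.7% and 98.6% had less cover. Vax1 had the most cover of the 8 genes in replicate 1, and Foxe1 in replicate 2. Its ratio of replicate 1 to replicate 2 peaks, 2.04, was also high: 87.7% of the 6145 genes with at least 20 peaks had a lower one, and their median was 0.818.

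**Figure D5:**
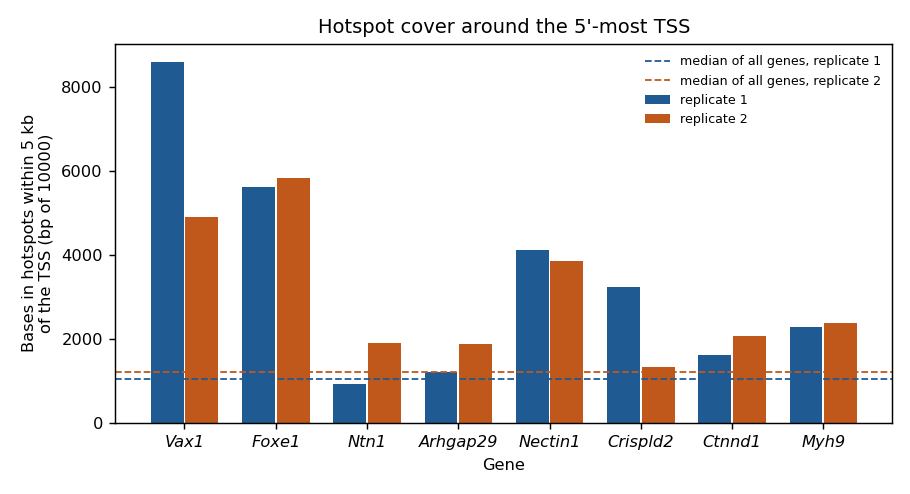
Bases covered by hotspots within 5 kb on either side of the 5'-most TSS of each gene (y axis, bp) in replicate 1 and replicate 2, with dashed lines at the medians over all genes, 1037.5 and 1203 bp. Vax1, Foxe1 and Nectin1 have at least 3863 bp in both libraries, and Ntn1 is below the median in replicate 1 only.

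Foxe1, the forkhead gene, had a weak shared promoter peak in wide open surroundings. It lies at chr4:46343609-46346412 on the plus strand and had 29 and 33 peaks in replicate 1 and replicate 2. The 1 shared promoter peak, 338 bp upstream, had strengths of 31 and 58, the lowest of the 8 genes' strongest shared promoter peaks in both libraries. However, 2 unshared promoter peaks of replicate 2 were as strong or stronger (67 at +822 bp and 58 at -678 bp). In replicate 1 an unshared peak of 52 lay at +1022 bp, just outside the promoter window. Hotspot cover around the TSS was 5627 and 5839 bp, more than in 98.6% and 99.2% of genes, so both libraries put Foxe1 near the top by this measure. The shared promoter peak lies in an intron of Gm12446, an antisense gene that overlaps Foxe1 and its upstream region.

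Several Foxe1 peaks away from the promoter were stronger. The GC-rich site 38.7 kb upstream, whose sequence is given above, had strengths of 64 and 101 and also lay in an intron of Gm12446, 22366 bp from the nearest annotated TSS of any kind. A site 66.6 kb upstream had 48 and 93, and one 13.3 kb downstream 45 and 71. The farthest, 72.3 kb upstream, had 23 and 70 and lay nearly midway to the TSS of Xpa, which was 147.3 kb from that of Foxe1. Both of the sites beyond 60 kb were intergenic, and 2 shared peaks nearer the gene, at 1.96 and 2.40 kb downstream, fell in its UTR exon. The widest distal hotspot was 821 bp, 3821 bp upstream, in replicate 1, and 1004 bp over the 66.6 kb site in replicate 2.

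Ntn1, the secreted guidance cue, spread its open sites over a long gene, chr11:68209364-68400823 on the minus strand, which has 2 of the TSSs used to class peaks. It had 35 peaks in replicate 1 and 66 in replicate 2, a ratio of 0.530 that was below that of most genes (15.5% had a lower one). Of its 9 promoter peaks in replicate 1, 6 matched 4 peaks of replicate 2, because some peaks of replicate 1 overlap each other. The strongest, 145 bp upstream of the inner TSS, had strengths of 66 and 110. The annotation's full set of transcripts has a further protein-coding TSS of Ntn1 at 68387012, 42 bp from the midpoint of this peak. The next pair, at +292 and +252 bp from the outer TSS, overlapped and had 48 and 44 in replicate 1 and matched the same replicate 2 peak of 93. The inner TSS lay in a hotspot of 1182 bp in replicate 2, and in replicate 1 no hotspot covered the inner or the outer TSS.

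Among the 15 shared distal peaks of Ntn1, the strongest was intergenic, 7.55 kb upstream of the outer TSS, at 64 and 100. By mean percentile rank, the second lay 171.5 kb downstream of a TSS, in an Ntn1 intron, at 38 and 100. The third was in a coding exon 1.42 kb downstream, at 46 and 70. In replicate 1 the third was stronger than the second. In replicate 2 the first and second tied at 100, and other shared distal peaks, of up to 85, were stronger than the third. With the second, 6 of the 15 lay between 155 and 172 kb downstream, and the farthest pair, at 206 and 210 kb, fell in introns of the neighbouring gene Stx8. The peak at 210 kb had 25 and 71. It was almost equally near to the TSS of Stx8, which lay 420.3 kb from the inner TSS of Ntn1. One site, 165.8 kb downstream (36 and 78), overlapped the microRNA gene Mir6406. The widest distal hotspot was the same place in both libraries, 157 kb downstream, with 1165 bp in replicate 1 and 932 bp in replicate 2.

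Crispld2, the other secreted protein, had a strong promoter and few shared distal sites. The gene lies at chr8:119992438-120052793 on the plus strand, overlaps the protein-coding gene model Gm20388, and had 16 and 18 peaks. Among the TSSs used to class peaks the gene has 3, at 119992438, 119992508 and 120002726, and each distance is to the nearest. Its shared promoter peak, 7 bp upstream of the first, had strengths of 94 and 130, at percentiles 97.6 and 97.8 of all peaks. This peak was in the same position in both libraries. All 3 shared distal peaks were intronic: 1.80 kb downstream (27 and 66), 42.9 kb downstream (20 and 61) and 2.30 kb downstream (21 and 55). The 42.9 kb are counted from the TSS at 120002726 and the other distances from the TSS at 119992508. Hotspot cover differed: 3232 bp in replicate 1, above 94.6% of genes, and 1321 bp in replicate 2, above 54.7%. The widest distal hotspot was 474 bp, 8030 bp upstream, in replicate 1 and 708 bp, 44096 bp downstream of the TSS at 120002726, in replicate 2.

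Nectin1, the adhesion molecule, had the most shared distal peaks of the 8 genes, 18 beside 15 at Ntn1, although Ntn1 had more as hotspots (18 against 16) and both had 5 with the 50000 strongest peaks. Nectin1 also had the largest interval of the 8 genes, with 8.89 predicted, and so stood at 2.03 times its prediction. In single libraries, with no match asked for, Vax1 led in replicate 1 (48 against 37) and Ntn1 in replicate 2 (60 against 39). It lies at chr9:43743984-43807461 on the plus strand and had 40 and 44 peaks, 21 of them shared. The shared promoter peaks had strengths of 72 and 112 at -233 bp, 53 and 74 at +287 bp, and 44 and 73 at -813 bp. A stronger promoter peak of replicate 2, 116 at -73 bp, had no partner, the nearest replicate 1 peak being 160 bp away. All of these lay in a hotspot of 2451 bp in replicate 1 and 3224 bp in replicate 2, and cover within 5 kb was above 97.0% and 96.9% of genes.

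The strongest distal site of Nectin1 was intergenic, 45.4 kb upstream, at 73 and 108, beside 72 and 112 for the strongest shared promoter peak. The second was 136.2 kb downstream of the TSS, past the end of the gene (55 and 102), and the third 5.75 kb upstream (44 and 82). In replicate 2 the widest distal hotspot, 697 bp, covered the second of these sites, and in replicate 1 it was 1097 bp, 1.81 kb downstream. The farthest peak, 198.7 kb upstream, had 16 and 59. Several of the sites near the TSS lie in the noncoding gene Gm30015, with a peak 10 bp from a TSS of that gene, and 7 of the 18 were intergenic. The peaks 83.8 and 102.3 kb downstream both held the CTCF core in its exact letters, AGGGGGCGC. The other 69 shared distal peaks of the 8 genes lacked these letters. Other forms of the CTCF motif were not searched, so peaks with such forms are not counted.

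Ctnnd1, the cadherin-binding catenin, was the counterpart with few shared sites. It lies at chr2:84600071-84650765 on the minus strand, with 21 peaks in replicate 1 and 11 in replicate 2, of which 4 were shared. The ratio of 1.91 was higher than in 86.0% of genes with enough peaks. Its shared promoter peak, 9 bp downstream of a TSS, had strengths of 73 and 120, at 54.0% GC and with 1 CpG dinucleotide. The shared distal peaks were 31.5 kb downstream (35 and 50), 14.4 kb downstream (23 and 64) and 66.7 kb downstream, past the gene's end (10 and 32). A stronger pair missed the criterion: peaks 13709 and 13629 bp downstream, of strength 42 and 91, overlapped by 70 bp. Hotspots showed this place too, with the widest distal hotspot of replicate 2, 512 bp, over it, whereas that of replicate 1 was 773 bp, 63826 bp downstream, with no counterpart in replicate 2.

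Arhgap29, the GTPase-activating protein, had its strongest site away from the TSS that was used to class its peaks. The gene lies at chr3:121952541-122016753 on the plus strand and had 15 and 24 peaks, 8 of them shared. The promoter peak 18 bp upstream had strengths of 81 and 116, and a second, at +522 bp, had 37 and 73. An intronic peak 14.6 kb downstream had 98 and 138, at percentiles 98.2 and 99.4, and stood in the same position in both libraries. It was the strongest shared distal peak of the 8 genes in both libraries. The annotation's full set of transcripts, unlike the basic set used to class peaks, has a protein-coding TSS of Arhgap29 at 121967829, 39 bp from its midpoint. With that set the peak and its neighbour 15.6 kb downstream (33 and 76) are promoter peaks, leaving 4 distal ones. The second strongest distal site was intergenic, 68.1 kb upstream, at 62 and 97, and was also the farthest. This site lay nearly midway to the TSS of Abcd3, which was 137.9 kb from that of Arhgap29. The third, 11.2 kb downstream in an intron, had 49 and 91. The widest distal hotspot lay over the 14.6 kb site in both libraries, with 971 and 1474 bp.

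Myh9, the myosin heavy chain, had the strongest promoter peak of the 8 genes. It lies at chr15:77760587-77842175 on the minus strand and had 16 and 22 peaks, 7 of them shared. The peak 216 bp upstream had strengths of 101 and 137, at percentiles 98.7 and 99.2, and the second, at +304 bp, had 56 and 94. Upstream of the gene lay its strongest distal peaks, intergenic, at 15.7 kb (45 and 104) and 40.8 kb (36 and 88), the latter also the farthest. The third by mean percentile rank, in an intron 21.2 kb downstream, had 23 and 63, and in each library alone another shared distal peak (28 in replicate 1, 66 in replicate 2) also ranked above it. The widest distal hotspots, 435 bp in replicate 1 and 800 bp in replicate 2, lay over the first and second of the upstream sites.

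The 18 motifs were the homeodomain core TAATTA, the E-box CATCTG and the E-box CATATG, the TEAD motif GGAATG, the AP-1 motif TGANTCA, the AP-2 motif GCCNNNGGC, the nuclear receptor core AGGTCA, the SOX motif AACAAT, the forkhead motif TGTTTAC, the grainyhead motif AACCGGTT, the GATA-factor motif AGATAA, the CTCF core AGGGGGCGC, the SP/KLF motif GGGCGGG, the ETS motif CCGGAAG, the NF-Y motif CCAAT, the NRF1 motif GCGCATGCG, the cyclic AMP response element TGACGTCA and the TATA box with the letters TATAAA. All were searched on both strands of the 150 bp. Matches can overlap, and a match is a description of the letters, not a bound site. Among the 19 promoter peaks 7 held the NF-Y motif (36.8%, against 21.9% of all shared promoter peaks) and 5 each the SP/KLF motif (26.3% against 31.6%) and the AP-2 motif (26.3% against 16.6%). Among the 71 distal peaks 17 held NF-Y (23.9% against 18.6%), 14 the E-box CATCTG (19.7% against 18.4%) and 8 AP-2 (11.3% against 6.26%). The cyclic AMP response element was in 2 of 71 (2.82% against 0.456%), at Foxe1 and Nectin1. The forkhead motif was in none of the 71, against 2.07% of all. Median GC content was 66.7% in the promoter peaks and 52.7% in the distal peaks, against 64.7% and 50% over all shared peaks of each class. With 19 and 71 peaks, several of them neighbours at the same gene, these shares are descriptions only.

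Partners of the 8 genes, 41 genes listed by role, had open promoters too: 37 of 41 had a shared promoter peak, beside the 64.2% of all genes. The share over all genes rose with CpG content, as given above, and the partners were not compared within CpG classes. All 7 netrin receptors, all 7 genes of the cadherin-catenin complex and all 8 of non-muscle myosin and its regulators had one. The 4 without, named after their values were seen, were Ntn5 (a peak in replicate 1 only), Nectin4 and Rasip1 (replicate 2 only) and Emx1 (peaks in both that did not match). None lacked a promoter peak in both libraries. In shared distal peaks the 41 had 226 where 299.8 were predicted, and 25 of 41 exceeded their own prediction, beside the 44.8% of all genes. The homeobox and forkhead relatives had 63 with 16.3 predicted, and the netrin receptors 55 with 113 predicted. The most were at Emx2, a homeobox gene related to Vax1 (28 with 7.24 predicted), Cdh2, which encodes N-cadherin (21 with 53.8 predicted), and Foxd3, a forkhead gene of neural crest (19 with 5.07 predicted). Cdh2 was thus below its prediction and the other two above theirs.

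The labelled tissue was checked against marker genes. A shared promoter peak was found at 8 of 8 facial mesenchyme markers, 5 of 7 ectoderm, 4 of 4 neuron, 2 of 3 skeletal muscle and 1 of 4 endothelium markers, and at 0 of 4 erythroid, 0 of 4 macrophage and 0 of 3 liver markers. The endothelium markers differed by library, with a promoter peak at 1 of 4 in replicate 1 and 4 of 4 in replicate 2, and so did those of ectoderm (5 and 7 of 7). With no match asked for, replicate 1 had a promoter peak at 1 erythroid, 1 macrophage and 1 liver marker. Replicate 2 had one at 2 erythroid markers and at 0 of the macrophage and liver markers. The part of such differences in the results above was not tested. Shared distal peaks set the groups less apart, since 30 of all 37 markers exceeded their prediction (277 peaks with 141.8 predicted). Among them were 8 of 8 mesenchyme (129 with 33.2 predicted), 3 of 4 macrophage (23 with 18.8) and 3 of 3 liver markers (10 with 4.78).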

How the data were processed

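DNase-seq peaks and hotspots were analysed as deposited, 1 file of each per library, with coordinates on mm10 (per the labels). As to aligner and peak caller, the sources used here name none. Each 150 bp peak carries a signal value deposited by the authors, a whole number whose unit and relation to depth are not given, and each hotspot a −log10 q value deposited by the authors, with a ceiling of 100. No read totals are in the files used, so the depth is unknown. Chromosomes 1 to 19 and X were used, and 62 and 23 repeated peak rows were dropped. TSSs came from protein-coding transcripts of the basic set of GENCODE M21 (41135 TSSs), sequence from GRCm38.p6. Percentiles rank a peak among all peaks of its library, and the mean of both libraries' percentiles orders the peaks of a gene. Peaks are not replicates and the spread between 2 libraries, which may be technical, was not tested. The named sites are, per gene, up to 3 shared promoter peaks, the 3 strongest and the farthest shared distal peaks and the widest distal hotspot, with others chosen after their values were seen. The genes, the partner, marker and motif lists and the rules were chosen with earlier results of these data known. Matching and nearest-TSS code was tested on simulated data. Python 3.11.15, pandas 2.3.3, NumPy 2.4.6, SciPy 1.17.1 and pyfaidx 0.9.0.4 were used. Alternatives changed the overlap, the peak threshold, the promoter window, the TSS set, the distance limit, the libraries and the element (hotspots).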

Additional observations from a re-analysis of the deposited data

How the results depend on the processing

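Strict settings lowered the counts. An overlap of 90% of a peak kept only pairs at the same position, the next smaller overlap at the 8 genes being 130 bp. It left 10.7% of replicate 1 peaks shared, and 3 genes with a shared promoter peak. Shared distal peaks then numbered 21, with a median of 2 per gene. With the 50000 strongest peaks of each library these were 58.7%, 7 genes, 20 and 2.5, and 6 of 8 genes exceeded their prediction. Any overlap gave 51.1% shared. Peaks of 1 library alone gave 192 to 213 distal peaks and medians of 21 to 22 per gene, since no match was asked for. Over these and the other settings the number of genes above their prediction ranged from 6 to 8. The shares over all peaks and all genes are given for the main setting only. Whether the 8 genes differ from others under the alternatives was therefore not tested. The TSS set of all protein-coding transcripts was added after seeing the data and gave 74 distal peaks. Of 88 values for single genes, 54 were within 1.5 times the main count and 34 were not. The unknown depth of both libraries leaves no limit for sites that were not found.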
